A study of Danio rerio with 20 samples.

Results

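The comparison is between wild-type zebrafish larvae (Danio rerio) that were kept with a secondary effluent extract (SEC) from wastewater treatment, of the campaign named JUN20, and the control larvae (CTRL) of that campaign. Messenger RNA of whole larvae was sequenced and counted per gene. The members were the 5 libraries titled SEC JUN20 and the 5 titled CTRL JUN20, taken by title, which makes 10 of the 20 libraries of the series. The 10 others form the same pair of groups for a campaign named OCT20 and enter below only where the effect of both campaigns is compared. The SEC JUN20 larvae were in fish water with the extract at a strength given as 20x from day 4 to day 5 after fertilisation, and the CTRL JUN20 larvae are labelled as controls with no further agent named. All larvae were taken whole at 5 days post fertilisation (dpf), came from natural matings, and each library was made from a pool of 10 larvae. The 5 exposed pools share 1 extract label, so their spread is that between pools of larvae and not between effluent samples. The labels do not say if different pools were of different spawns, and that spread may in part be technical.

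An effluent extract holds many organic chemicals at once, and vertebrate cells meet such mixtures with a small set of sensors. The aryl hydrocarbon receptor (AhR) binds planar aromatic compounds, pairs with Arnt and switches on cytochrome P450 enzymes of family 1, while its own repressor closes the loop. The pregnane X receptor does the same for many drugs and steroids through family 2 and 3 enzymes, Nrf2 answers electrophiles through glutathione and thioredoxin genes, and estrogen receptors switch on brain aromatase in fish. The oxidised products are joined to glucuronic acid, sulfate or glutathione and carried out of the cell by ABC transporters.

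The June libraries held 29561657 to 49041825 counts in CTRL and 35324850 to 59922353 counts in SEC, and 23059 of 32520 genes were tested. The common biological coefficient of variation between pools was 8.02%. Defining markers of the organs of a larva were detected, from fabp10a of the liver and mylpfa of fast muscle to rho of rods and krt4 of the skin, and the adult egg yolk gene vtg1 was at 0.308 ± 0.0636 CPM in CTRL (CPM, the count scaled to a common library size after TMM normalisation; mean ± SD, n = 5). The first principal component of all tested genes held 26.8% of the variance and put all 5 SEC libraries on one side and all 5 CTRL libraries on the other. SEC replicate 1 stood apart on the second component (13.4%), and SEC replicate 5 stood apart in the heat shock gene hsp70.2. Where leaving out 1 library moved a count of at least 5 calls in a list by over 1.5 times, that value is given beside it, while smaller counts are listed without such values and several of them move as much. In these pools of whole animals, fewer cells of a type and less RNA per cell cannot be told apart.

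With the June extract 2003 genes were higher and 1663 lower than in the June controls, 15.9% of all genes tested (edgeR quasi-likelihood test, 5 libraries per group, Benjamini-Hochberg adjusted p under 0.05, "called" from here on). The higher calls were 8.69% and the lower calls 7.21% of all genes tested. Counts of calls in the gene lists below are to be read beside these shares. The median log2 change over all genes tested was -0.00044. Scaling by library totals alone in place of TMM gave 2480 higher and 1114 lower genes, so that 69% of calls were higher in place of 54.6%. The called genes had a median absolute log2 change of 0.27, and 3205 of the 3666 called genes changed by less than 1.5-fold. At least 2-fold changes were found in 100 higher and 36 lower genes. All 5 SEC libraries lay above all 5 CTRL libraries in 1565 genes (6.79%) and below them in 1328 (5.76%).

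**Figure D1:**
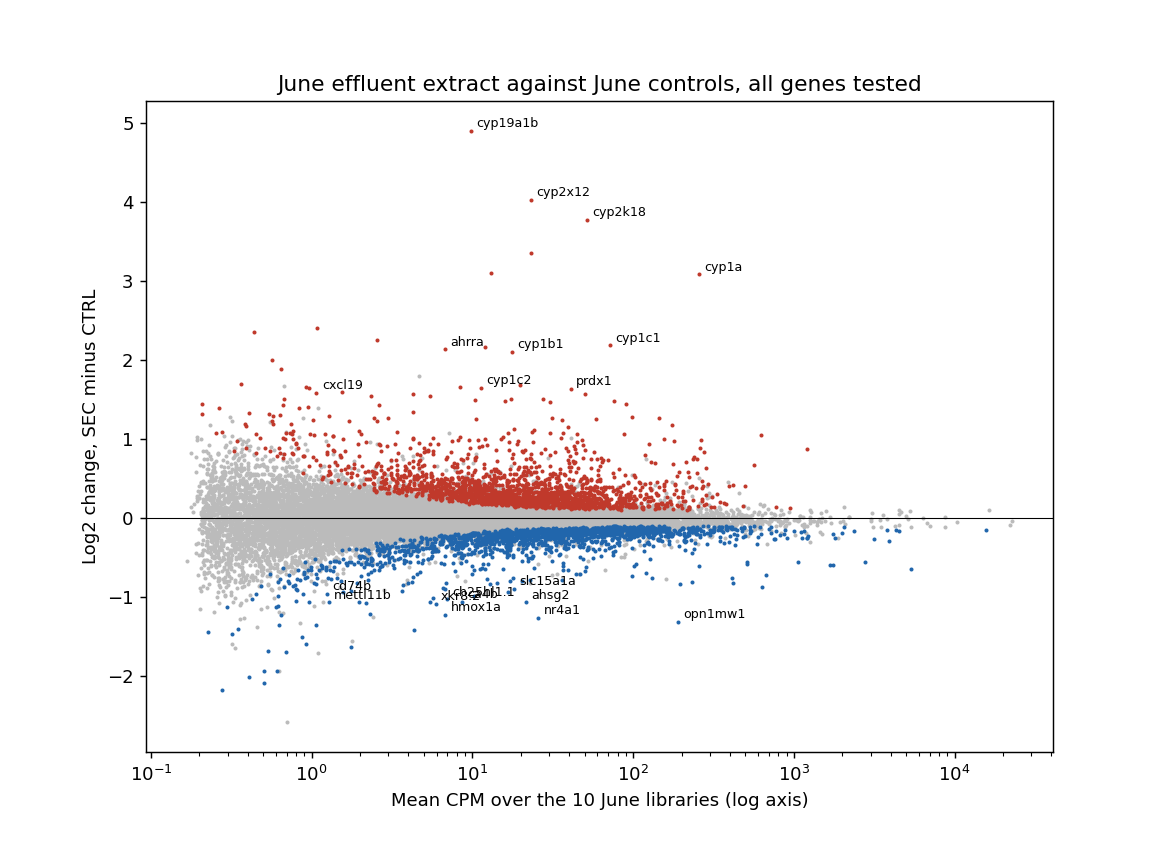
Log2 change (SEC minus CTRL, JUN20) of each gene tested against its mean CPM over the 10 June libraries on a log axis; red points are called higher, blue points called lower and grey points not called, at an adjusted p under 0.05. The labelled genes are the 10 largest and the 10 most negative changes of the rule for named genes, with cyp19a1b at 4.90 and opn1mw1 at -1.32.

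Known target genes of the AhR were higher with the extract. Of the 12 tested targets and repressors of the list, 9 rose and 1 fell, with a median log2 change of 1.16. Transcripts of cyp1a, the monooxygenase used worldwide as a marker of exposure to aromatic hydrocarbons, were at 58.0, 48.2, 55.2, 57.1 and 53.1 CPM in the CTRL libraries and at 479, 505, 442, 456 and 426 CPM in the SEC libraries. The groups were far apart and both were tight, a log2 change of 3.09 ± 0.06 (adjusted p = 8.08e-15). The fish enzyme gene cyp1c1 was at 25.1, 27.4, 25.7, 24.5 and 26.4 CPM in CTRL and 124.5, 120.1, 108, 120.0 and 115 CPM in SEC (2.19 ± 0.05, adjusted p = 8.08e-15). Its neighbour in the family, cyp1c2, was at 6.09, 5.83, 5.60, 4.68 and 5.01 CPM in CTRL and 18.6, 17.8, 16, 16.9 and 16.9 CPM in SEC (1.65 ± 0.07, adjusted p = 6.36e-10). No library of one group reached the range of the other in these 3 genes. The estradiol and retinoid hydroxylase gene cyp1b1 rose by 2.11 ± 0.10 and the receptor's repressor ahrra by 2.13 ± 0.10, from 2.54 ± 0.444 to 11.01 ± 0.784 CPM (mean ± SD, n = 5 each).

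Among the sensors themselves, ahr2, the receptor that carries most dioxin toxicity in zebrafish, rose by 0.42 ± 0.05 from 156 ± 7.53 to 208 ± 14.9 CPM (adjusted p = 2.92e-05). The second receptor ahr1b moved the other way, from 28.7 ± 1.32 to 22.8 ± 2.46 CPM (-0.33 ± 0.06, adjusted p = 0.00233). The partner gene arnt2 fell slightly (-0.14 ± 0.04, adjusted p = 0.0170, 0.0602 under scaling by library totals), and the other 5 of the 8 sensors and partners tested were not called. The target that fell was sox9b, a cartilage and heart transcription factor gene known in zebrafish to fall with dioxin, from 34.3 ± 2.15 to 25.8 ± 2.13 CPM (-0.41 ± 0.06, adjusted p = 0.000226).

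**Figure D2:**
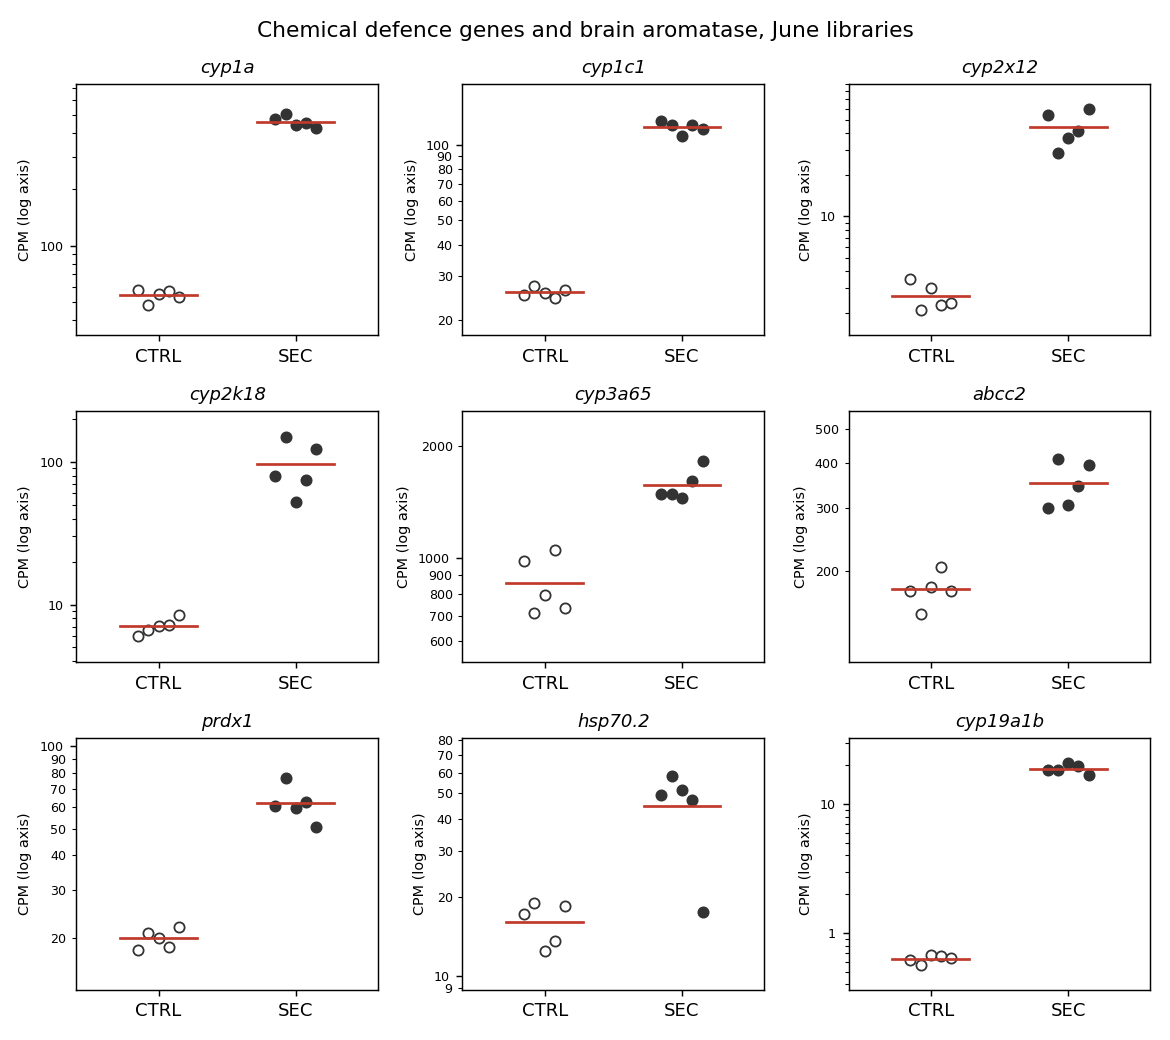
CPM in each of the 10 June libraries, on a log axis, for 8 genes of chemical defence and for brain aromatase; open circles are the 5 CTRL libraries, filled circles the 5 SEC libraries and bars the group means. The groups do not overlap in 8 of the 9 genes shown, with hsp70.2 as the exception, where SEC replicate 5 lies among the controls.

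Cytochrome P450 genes of family 2, which oxidise drugs, fatty acids and steroids, rose in 18 of 39 tested members and fell in none, with a median of 0.46. The share higher was 46.2%, against 8.69% over all genes tested. The gene cyp2x12 went from 3.51, 2.11, 3, 2.26 and 2.34 CPM in CTRL to 53.9, 28.4, 36.5, 41.0 and 59.19 CPM in SEC, or 4.03 ± 0.26 on the log2 scale (adjusted p = 2.08e-05). The gene cyp2k18 went from 5.99, 6.66, 7.07, 7.17 and 8.45 CPM to 80.0, 149, 52.1, 74.5 and 124 CPM, a log2 change of 3.77 ± 0.33 (adjusted p = 0.000159). The exposed pools differed among themselves, cyp2x12 being lowest in SEC replicate 2 and cyp2k18 in SEC replicate 3, yet in both genes every SEC library lay above every CTRL library. The smaller member cyp2k20 rose from 1.42 ± 0.212 to 3.86 ± 0.535 CPM (1.43 ± 0.13). The symbols cyp2x10.2 and cyp2y3 each name a pair of genes, and reads may be split between such copies.

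Family 3 is the classic output of the pregnane X receptor. In a list of family 3 enzymes with that receptor and the P450 reductases, 5 of 8 tested genes rose while none fell. The share higher was 62.5%, against 8.69% over all genes tested. Of these 5, nr1i2, pora and porb are not family 3 enzymes. The gut and liver enzyme gene cyp3a65 was at 979, 714, 797, 1048 and 735 CPM in CTRL and 1482, 1486, 1451, 1613 and 1824 CPM in SEC (0.88 ± 0.12, adjusted p = 0.00123). The receptor gene nr1i2 itself rose from 20.0 ± 1.61 to 29.9 ± 1.17 CPM (0.58 ± 0.06, adjusted p = 3.59e-06). Both genes of the electron-donating reductase rose, porb by 0.84 ± 0.05 and pora by 0.23 ± 0.04.

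Genes of conjugating enzymes were higher as well. UDP-glucuronosyltransferases, which attach glucuronic acid, rose in 13 of 27 tested members (48.1%) and fell in none (median 0.48). Shares over all genes tested were 8.69% higher and 7.21% lower. The bilirubin and drug enzyme gene ugt1a1 was at 114, 108, 125.2, 125.5 and 129 CPM in CTRL and 209, 297, 193, 221 and 262 CPM in SEC (0.98 ± 0.12, adjusted p = 0.000532), and these ranges did not overlap. Among 20 sulfotransferases 5 rose (25.0%) and 2 fell (10.0%), with sult6b1 at 0.80 ± 0.05 and sult1st4 at -0.63 ± 0.12. Glutathione transferases rose in 9 (40.9%) and fell in 3 (13.6%) of 22. The pi class enzyme gene gstp1 went from 187 ± 8.51 to 313 ± 43.4 CPM (log2 change 0.74 ± 0.09). The mu class gene gstm.3 fell by 0.44 on the log2 scale.

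Genes of the ABC family, taken by name and not limited to efflux pumps, rose in 16 of 51 tested members. The share higher was 31.4%, against 8.69% over all genes tested. The retinal transporter gene abca4a was the member that fell (-0.27 ± 0.07, adjusted p = 0.0181). The canalicular pump gene abcc2, which exports conjugates into bile, was at 176, 152, 180.3, 206 and 176 CPM in CTRL and 301, 410.4, 306, 347 and 395 CPM in SEC. This separation without overlap gave a log2 change of 0.98 ± 0.11 (adjusted p = 0.000233). The multidrug pump genes abcb5 (0.75 ± 0.06) and abcc4 (0.54 ± 0.05) rose as well. Of 25 organic ion carriers of the slc22 and slco families 4 rose (16.0%), led by slc22a18 (0.88 ± 0.09), and slco2b1 fell (-0.44 ± 0.06, adjusted p = 0.000135).

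Genes of the Nrf2 and thiol system rose in 23 of 39 tested members, against 8.69% higher among all genes tested. The peroxide-removing enzyme gene prdx1 was at 18.1, 20.9, 20.1, 18.5 and 22.0 CPM in CTRL and 60.6, 76.6, 59.7, 62.4 and 50.8 CPM in SEC, a log2 change of 1.64 ± 0.10 with no overlap (adjusted p = 1.36e-06). The sensor genes keap1a (0.71 ± 0.05) and keap1b (0.47 ± 0.04) and the factor gene nfe2l2a (0.58 ± 0.05) rose by smaller amounts. Haem oxygenase hmox1a, a widely used Nrf2 target that breaks down haem, went the other way, from 8.88, 9.51, 10.5, 11.8 and 6.95 CPM in CTRL to 3.35, 4.28, 4.60, 3.93 and 4.14 CPM in SEC (-1.22 ± 0.12, adjusted p = 1.27e-05). No SEC library reached the lowest CTRL library in hmox1a.

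Haem is the cofactor of every P450 enzyme. Of 21 genes of its synthesis and breakdown 8 rose and 2 fell, with hmox1a among the lower ones. Over all genes tested 8.69% were higher and 7.21% lower. The first enzyme of synthesis in most tissues, alas1, went from 405 ± 55.1 to 839 ± 99.9 CPM (1.05 ± 0.11, adjusted p = 0.000174), and the last, fech, rose by 0.68 ± 0.06. The haem-binding gene hebp2 was at 41.3, 39.8, 44.3, 34.5 and 39.1 CPM in CTRL and 109, 118, 101, 115 and 116 CPM in SEC (1.49 ± 0.06, adjusted p = 6.24e-10), again without overlap. The red cell enzyme gene alas2 was not called (0.12 ± 0.12, adjusted p = 0.558).

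The most positive change of the genes named by size was in cyp19a1b, brain aromatase, which makes estradiol in radial glia and is a classic estrogen reporter in fish. It was at 0.619, 0.566, 0.671, 0.660 and 0.635 CPM in CTRL and 18.5, 18.4, 21.0, 19.6 and 17.0 CPM in SEC. The controls were low but close together and no exposed pool came near them, a log2 change of 4.90 ± 0.09 (adjusted p = 5.50e-15). The annotation in the table marks cyp19a1b as an unprocessed pseudogene, a class given here as deposited. The yolk precursor gene vtg1, an estrogen target of the adult liver, was at 0.308 ± 0.0636 CPM in CTRL and 0.185 ± 0.0788 CPM in SEC and was not called (-0.76 ± 0.33, adjusted p = 0.134). Of the 13 tested genes of the estrogen axis 3 rose (23.1%, against 8.69% over all genes tested). Besides cyp19a1b these were esrra and f13a1a.1. The change in esrra was 0.22 ± 0.05 (adjusted p = 0.00425, and 0.0974 with all 20 libraries in the fit). The low gene f13a1a.1 changed by 2.36 ± 0.59 (adjusted p = 0.0179, and 0.0522 without CTRL replicate 3), and its groups overlapped.

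Among glucocorticoid and steroid genes the reporter fkbp5 was not called (-0.78 ± 0.27, adjusted p = 0.0941; 0.0271 without SEC replicate 5 and 0.0340 with DESeq2), and 1 of 25 rose and 1 fell. The metal-binding gene mt2 was not called either (0.15 ± 0.07, adjusted p = 0.149; 0.04997 without CTRL replicate 5).

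Some genes that repair light-damaged DNA moved clearly. The photolyase gene cry5, whose enzyme reverses ultraviolet photoproducts in fish, was at 24.4, 23.7, 25.3, 21.4 and 23.0 CPM in CTRL and 46.01, 45.1, 47.4, 50.9 and 48.3 CPM in SEC (1.01 ± 0.05, adjusted p = 2.30e-09). The damage recognition gene xpc was at 27.1, 29.7, 29.1, 27.9 and 26.9 CPM in CTRL and 47.5, 51.3, 50.2, 54.5 and 50.4 CPM in SEC (0.85 ± 0.05, adjusted p = 5.82e-09). Both genes were fully separated between the groups. The genes cry-dash (0.75 ± 0.04) and ddb2 (0.49 ± 0.04) rose too. In the whole repair list 7 of 25 genes were higher (28.0%) and 1 lower (4.0%), with a median of 0.04. Shares over all genes tested were 8.69% higher and 7.21% lower. The p53 target and cell cycle brake cdkn1a did not move past the test (0.02 ± 0.12, adjusted p = 0.936). In the p53 list 3 of 22 genes rose (13.6%), ddb2 among them, and 1 fell (4.55%).

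Several of these repair genes are switched on by light through the D-box in zebrafish, as is part of the clock. Of 39 clock genes 8 rose and 8 fell (lower calls: 5 without SEC replicate 3, 5 without SEC replicate 4). The D-box factor gene tefa (0.51 ± 0.04) and the light-induced gene per2 (0.47 ± 0.04) rose, and the positive arm gene arntl1a (-0.44 ± 0.05) and the repressor gene nfil3-5 (-0.62 ± 0.08) fell. The gene per1a was not called in the main fit (-0.32 ± 0.10, adjusted p = 0.0535). DESeq2 called it lower (adjusted p = 0.00820), as did edgeR without SEC replicate 1 (0.0477), SEC replicate 5 (0.0286) or CTRL replicate 2 (0.0437). It was also called lower by edgeR with a stricter filter (0.0487) and with all 20 libraries in the fit (0.0469).

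Structural genes of the skin were lower. Keratins fell in 13 of 23 tested members and rose in none (median -0.22), against 7.21% lower among all genes tested. The surface keratin gene krt4 was at 6877, 6746, 6645, 6502 and 5736 CPM in CTRL and 4141, 3899.7, 4466, 4265 and 3977 CPM in SEC (-0.65 ± 0.05, adjusted p = 4.54e-07). The keratin gene krt5 was at 3822, 3459, 3251, 3299.6 and 2763 CPM in CTRL and 2332, 2124, 2352, 2362 and 2090.3 CPM in SEC (-0.56 ± 0.07, adjusted p = 0.000289). Every exposed pool lay below every control in both genes, and the keratins summed to 16929 to 20835 CPM in CTRL and 12404 to 13826 CPM in SEC. The type I genes krtt1c19e (-0.72 ± 0.07) and krt91 (-0.59 ± 0.07) fell by like amounts.

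Beneath the keratins, the anchoring fibril gene col7a1, whose protein ties the epidermis to the dermis, fell from 44.9 ± 2.99 to 28.4 ± 2.13 CPM (-0.67 ± 0.06, adjusted p = 1.25e-06). Collagens fell in 18 of 55 and rose in none. The desmosome and cornified layer list had 12 lower and 2 higher of 29 (lower calls: 7 without CTRL replicate 1, 7 without CTRL replicate 3). In that list the plaque gene pkp1b fell by 0.58 on the log2 scale.

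Part of the genes of the skin's ionocytes, which take up salt and excrete acid, went the other way. Of 30 tested genes 11 were higher (36.7%) and 2 lower (6.67%), beside 8.69% and 7.21% over all genes tested. The ionocyte marker gene foxi3a was not called, at 11.4 CPM in CTRL and 11.2 CPM in SEC (log2 change -0.01, adjusted p = 0.934). The sodium chloride cotransporter gene slc12a10.2 was at 48.7, 40.4, 50.0, 45.5 and 48.9 CPM in CTRL and 72.5, 78.5, 82.2, 76.1 and 86.9 CPM in SEC, with no overlap (0.76 ± 0.06, adjusted p = 1.07e-06). The ammonia channel gene rhcgb rose by 0.66 ± 0.07 and the calcium channel gene trpv6 fell (-0.40 ± 0.06). Tight junction claudins rose in 7 and fell in 1 of 29, with the smallest p among the higher ones in cldne (0.29 ± 0.04).

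**Figure D3:**
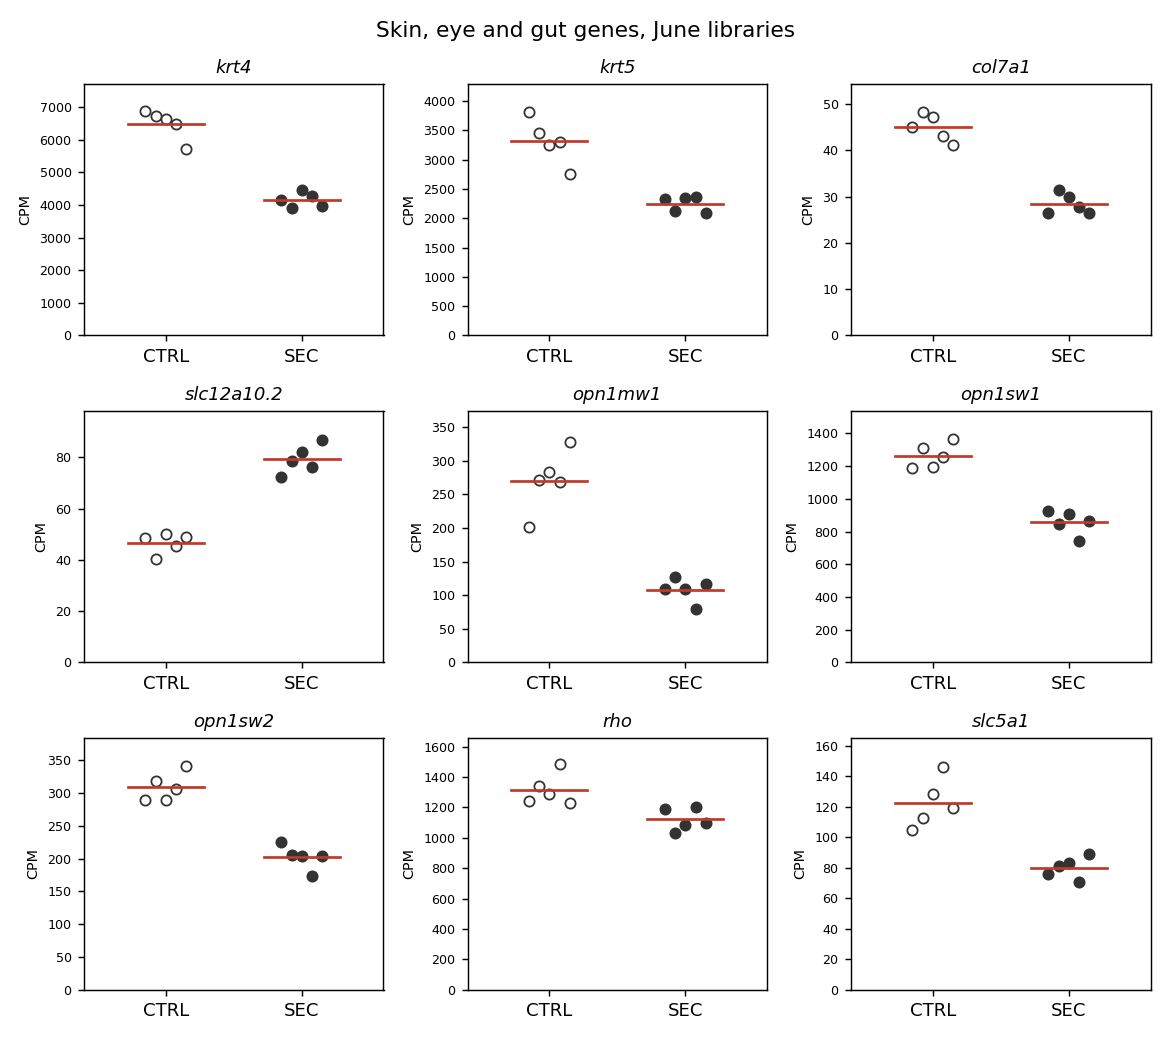
CPM in each of the 10 June libraries, on linear axes from 0, for 4 skin, 4 eye and 1 gut gene; open circles are the 5 CTRL libraries, filled circles the 5 SEC libraries and bars the group means. Keratin, opsin and slc5a1 values are lower in SEC, and the ionocyte gene slc12a10.2 is higher.

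Several visual pigment genes of the eye were lower. The opsin list also holds pineal and other non-visual opsins. Of its 21 tested members 8 were called lower (38.1%) and none higher, against 7.21% lower among all genes tested. Regardless of calls, 14 of the opsins had negative and 7 had positive changes. Their summed level was 3488 to 3934 CPM in CTRL and 2665 to 2977 CPM in SEC. The green cone opsin gene opn1mw1 was at 202, 272, 284, 268 and 328 CPM in CTRL and 109, 127, 109, 79.9 and 117 CPM in SEC (-1.32 ± 0.15, adjusted p = 0.000615). The ultraviolet cone opsin gene opn1sw1 was at 1189.9, 1310.0, 1192, 1253 and 1367 CPM in CTRL and 923, 848, 905, 744 and 866 CPM in SEC (-0.56 ± 0.06, adjusted p = 1.03e-05). Neither gene had a library of one group inside the range of the other. The rod pigment gene rho fell less (-0.23 ± 0.06, adjusted p = 0.0102), and the blue cone gene opn1sw2 fell by 0.61 on the log2 scale.

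In the phototransduction list, which also holds visual cycle and outer segment genes, 15 of 60 fell and 4 rose (lower calls: 9 without SEC replicate 3). With all libraries 25.0% of the list was lower and 6.67% higher, beside 7.21% and 8.69% over all genes tested. The cone transducin gene gngt2a (-0.51 ± 0.07) was among the lower ones. The summed level of the list overlapped, at 5609 to 6328 CPM in CTRL and 5393 to 6366 CPM in SEC. Of 35 retinal factors 6 fell and none rose, neurod1 from 149.6 ± 5.18 to 104 ± 13.1 CPM (-0.52 ± 0.07) and crx, a photoreceptor factor gene, by 0.20 on the log2 scale. Lens crystallins fell in 6 of 50 (lower calls: 18 without SEC replicate 1, 3 without SEC replicate 2, 3 without SEC replicate 3, 3 without SEC replicate 5, 3 without CTRL replicate 2, 3 without CTRL replicate 4, 12 without CTRL replicate 5). The share of crystallins lower with all libraries was 12.0%, not far from the 7.21% over all genes tested.

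Muscle and nerve genes were lower by small steps. Of 71 sarcomere genes 27 fell and 1 rose, with a median of -0.12, against 7.21% lower among all genes tested. The intermediate filament gene desma fell by 0.28 and the fast troponin gene tnnc2 by 0.19 on the log2 scale. Neuronal genes fell in 17 and rose in 2 of 65 (lower calls: 9 without CTRL replicate 3). The synaptic vesicle gene syn1 fell (-0.24 ± 0.04), and the serotonin transporter gene slc6a4a and the amine-making enzyme gene ddc rose (0.29 ± 0.05 and 0.40 ± 0.06). Receptor channels for GABA, glycine and glutamate fell in 6 of 56 (lower calls: 3 without SEC replicate 1, 1 without SEC replicate 3, 1 without CTRL replicate 3). That share, 10.7%, was close to the 7.21% over all genes tested. Myelin and glial genes fell in 6 of 30 (lower calls: 1 without CTRL replicate 1, 3 without CTRL replicate 2, 3 without CTRL replicate 4).

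Genes of mitochondrial fuel use were higher in part. Fatty acid oxidation and PPAR targets rose in 27 and fell in 2 of 55 (median 0.16). The long-chain dehydrogenase gene acadvl was at 231, 246, 258, 253 and 253 CPM in CTRL and 339, 339, 328, 324 and 336 CPM in SEC, which did not overlap (0.43 ± 0.04, adjusted p = 1.25e-06). The carnitine-making enzyme gene bbox1 rose from 34.7 ± 1.46 to 82.8 ± 5.33 CPM (1.25 ± 0.05). Nuclear genes of oxidative phosphorylation rose in 21 of 101, with the complex II genes sdha (0.40 ± 0.04) and sdhb (0.36 ± 0.05) among them, and cox4i2 fell (-0.21 ± 0.05). None of the 13 messenger genes of the mitochondrial genome was called by edgeR. Of 68 hypoxia and glycolysis genes 15 rose and 3 fell, with the hexokinase gene hk2 at 0.77 ± 0.09 and the pyruvate kinase gene pkmb at -0.32 ± 0.04.

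Protein turnover genes were higher in part. Proteasome subunits rose in 17 of 53 and fell in none (higher calls: 11 without SEC replicate 2, 9 without SEC replicate 3, 11 without SEC replicate 4, 9 without CTRL replicate 1, 10 without CTRL replicate 3, 11 without CTRL replicate 4). Aminoacyl-tRNA synthetases rose in 8 of 34 (higher calls: 4 without SEC replicate 2, 4 without SEC replicate 3, 3 without CTRL replicate 1, 5 without CTRL replicate 5). Of 79 cytosolic ribosomal protein genes 1 was called, a row whose symbol rpl37 is shared by a second gene. Heat shock proteins and co-chaperones rose in 14 of 52 (higher calls: 9 without SEC replicate 2, 9 without SEC replicate 3, 9 without CTRL replicate 1, 9 without CTRL replicate 3, 8 without CTRL replicate 4, 9 without CTRL replicate 5). The inducible gene hsp70.2 was at 17.2, 18.96, 12.4, 13.5 and 18.4 CPM in CTRL and 49.1, 58.0, 51.3, 47.1 and 17.5 CPM in SEC, where replicate 5 lay inside the control range (1.46 ± 0.31, adjusted p = 0.0158). The mitochondrial chaperone gene hspa9 rose in all 5 pools above every control (0.38 ± 0.05, adjusted p = 0.000171).

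Genes of the gut went both ways. Of 54 absorption genes 7 rose and 11 fell. The glucose carrier gene slc5a1 was at 105, 113, 128, 146 and 119 CPM in CTRL and 76.1, 80.9, 83.2, 70.5 and 88.8 CPM in SEC (-0.61 ± 0.09, adjusted p = 0.000987), and the groups did not overlap. The peptide carrier gene slc15a1a (-0.90 ± 0.15) and the retinol-binding gene rbp2a (-0.58 ± 0.06) fell, while its paralogue rbp2b (0.63 ± 0.06) and the peptidase gene anpepb (0.63 ± 0.09) rose. The ileal bile acid genes fabp6 (0.69 ± 0.08) and slc10a2 (0.72 ± 0.13) rose. Retinoid genes went both ways, with 9 higher and 7 lower of 45 (lower calls: 4 without SEC replicate 2, 3 without SEC replicate 4, 4 without CTRL replicate 2, 3 without CTRL replicate 4).

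In the liver list 14 of 68 plasma protein genes fell and 3 rose (lower calls: 9 without CTRL replicate 1). With all libraries 20.6% were lower and 4.41% higher, beside 7.21% and 8.69% over all genes tested. The list as a whole did not shift, with a median log2 change of -0.01, 33 positive changes and 35 negative ones. The apolipoprotein gene apoea was at 253, 267, 235, 271 and 233 CPM in CTRL and 128, 144, 145, 139.7 and 147 CPM in SEC, without overlap (-0.84 ± 0.05, adjusted p = 2.41e-08). None of the 34 exocrine pancreas genes was called by edgeR, and their summed level was 10109 to 14949 CPM in CTRL and 9219 to 16244 CPM in SEC, highest in SEC replicate 1. The sterol sensor gene insig1 fell (-0.68 ± 0.10, adjusted p = 0.00130).

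Cell division genes were lower, with 11 of 52 called lower and none higher (lower calls: 25 without SEC replicate 2). The spindle checkpoint gene bub1 fell from 19.2 ± 1.22 to 13.7 ± 1.86 CPM (-0.49 ± 0.08, adjusted p = 0.000689). Immediate early genes had 3 higher and 3 lower of 33, each 9.09%, near the 8.69% higher and 7.21% lower over all genes tested. The activity-induced receptor gene nr4a1 was at 34.7, 44.2, 35.6, 34.1 and 33.2 CPM in CTRL and 14.2, 8.92, 16.0, 13.2 and 22.5 CPM in SEC (-1.27 ± 0.21, adjusted p = 0.00482), and its highest SEC library stayed below its lowest CTRL library. Of 54 inflammation and leukocyte genes 5 were higher, 9.26% against 8.69% over all genes tested, and rag1 was lower (-0.33 ± 0.08). The chemokine gene cxcl19 rose from 0.526 ± 0.228 to 1.62 ± 0.193 CPM (1.59 ± 0.23). The interferon list had 1 of 25 higher, and no annexin of 16 was called by edgeR.

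The other lists are given by their counts, to be read beside 8.69% higher and 7.21% lower among all genes tested. Several lay near these shares, such as the proton pump genes at 11.1% higher and 7.41% lower. Aldehyde dehydrogenases and aldo-keto reductases had 5 higher and 2 lower of 26, monocarboxylate carriers of the slc16 family 5 higher and 0 lower of 16 (higher calls: 3 without SEC replicate 1, 3 without SEC replicate 5, 3 without CTRL replicate 1, 3 without CTRL replicate 3, 3 without CTRL replicate 5) and cytochrome P450 genes of family 4 had 1 higher and 1 lower of 4. Metal and iron genes had 6 higher and 1 lower of 22, globins 1 higher and 0 lower of 9 and bile acid genes 5 higher and 1 lower of 18. The iron sensor gene aco1 rose by 0.50 ± 0.07 on the log2 scale. Unfolded protein and ATF4 genes had 6 higher and 2 lower of 44, fasting and atrophy genes 7 higher and 3 lower of 35 (higher calls: 4 without SEC replicate 4) and proton pump genes 3 higher and 2 lower of 27. The serine synthesis gene psph rose by 0.48 ± 0.07, and the autophagy receptor gene sqstm1, also an Nrf2 target, by 0.39 ± 0.06 (adjusted p = 0.115 with all 20 libraries in the fit). Cholesterol synthesis had 2 higher and 1 lower of 28, fatty acid and triglyceride synthesis 3 higher and 4 lower of 33 and purine synthesis 3 higher and 1 lower of 17. The very long chain elongase gene elovl4b fell from 40.2 ± 2.28 to 28.9 ± 1.19 CPM (-0.47 ± 0.05, adjusted p = 6.08e-06). Thyroid genes had 1 higher and 1 lower of 23, pigment cell genes 2 higher and 4 lower of 32 and heart muscle genes 0 higher and 2 lower of 23.

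**Figure D4:**
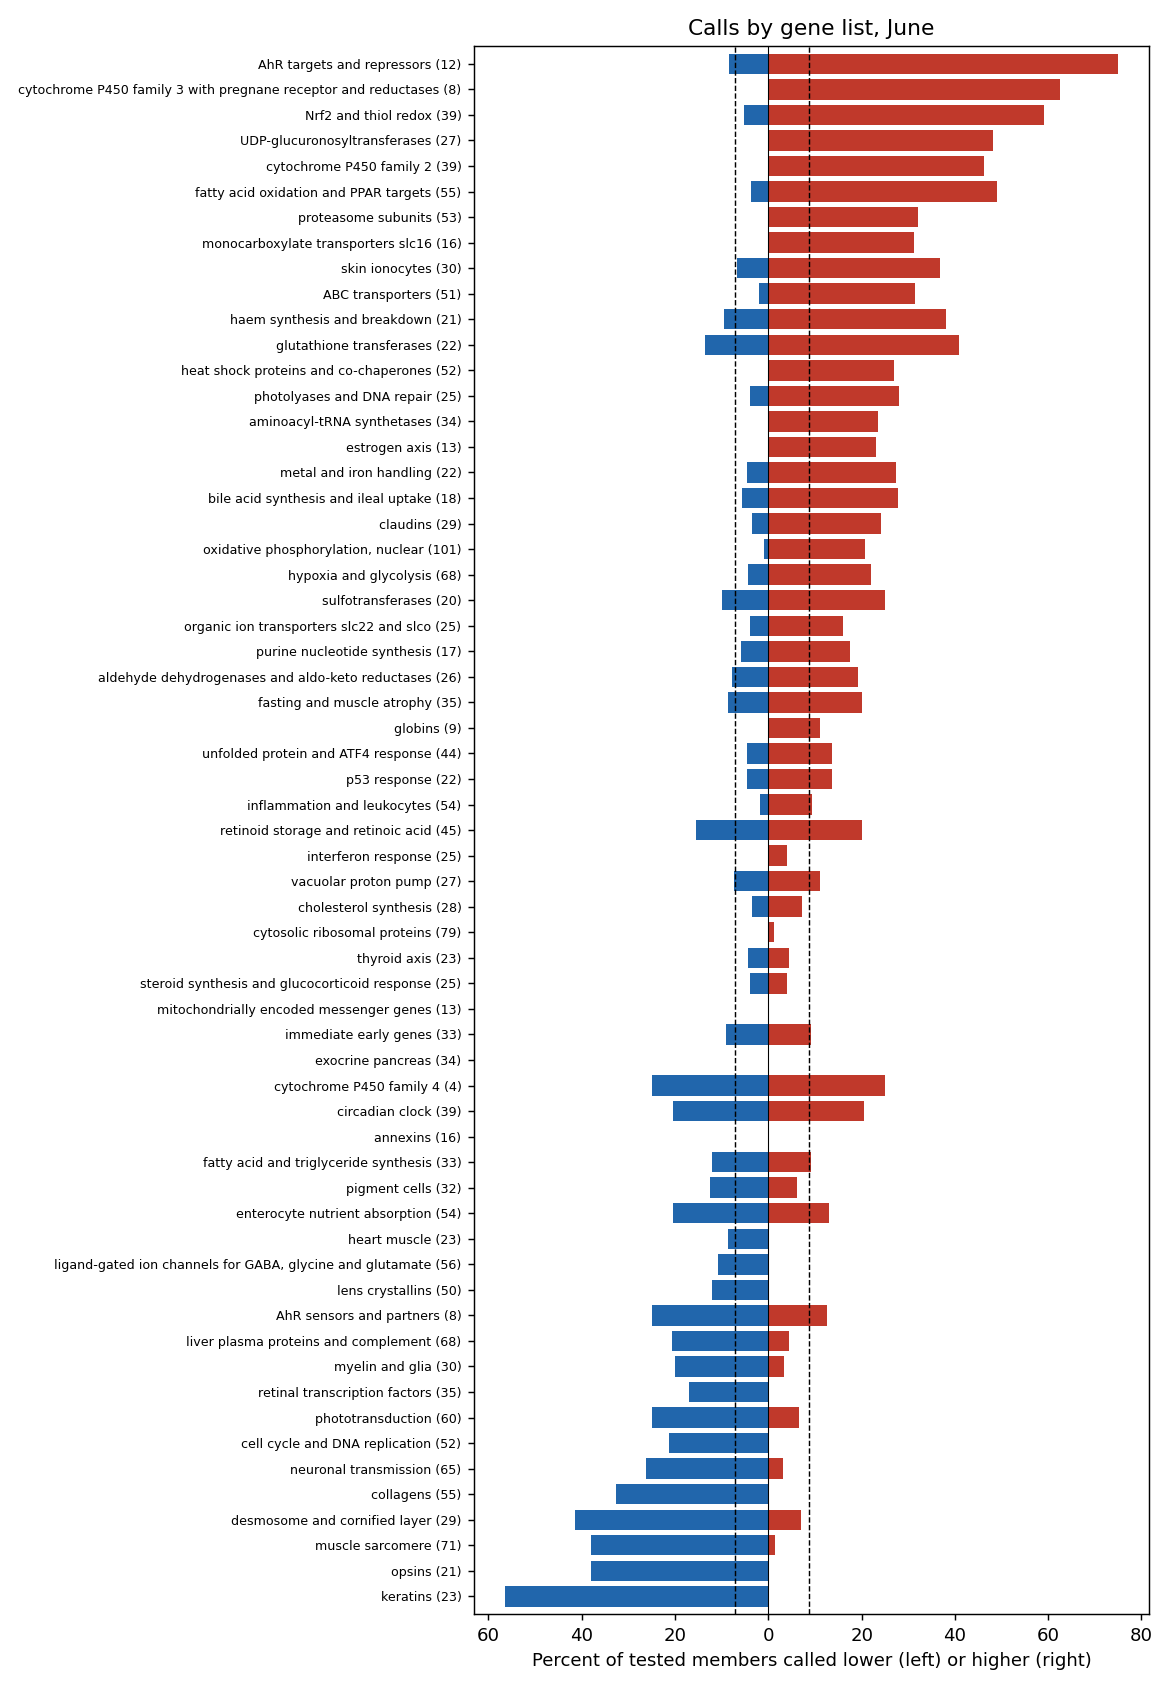
Percent of the tested members of each gene list that were called higher (red, to the right) or lower (blue, to the left) in SEC against CTRL, JUN20, with the number tested beside each name. Dashed lines mark the share over all genes tested, 8.69% higher and 7.21% lower.

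The October campaign gave the same kind of exposure with other larvae and its own controls, so the effect can be set side by side. Of the 1996 genes higher in June and tested in October, 899 (45.0%) were also higher there and 1 was lower. Of the 1657 genes lower in June, 548 (33.1%) were also lower and 10 were higher. These counts need a call in both campaigns. By sign alone, 1792 (89.8%) of the June higher and 1504 (90.8%) of the June lower genes changed the same way in October. From the other side, 55.6% of the 1618 October higher calls (7.21% of genes tested in both) and 48.0% of the 1142 October lower calls (5.09%) were called the same way in June.

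The difference of the effects (October minus June, 1 model of all 20 libraries) was called in 239 of 23121 genes (1.03%). Its count was 134 without CTRL JUN20 replicate 3, 147 and 158 without SEC JUN20 replicates 3 and 2, 154 without CTRL OCT20 replicate 3, and at most 330, without CTRL OCT20 replicate 5. Of the AhR targets described above, ahrra, cyp1a, cyp1b1 and cyp1c1 changed less in June, and the difference in cyp1c2 was not called (1.65 ± 0.07 in June and 1.48 ± 0.14 in October, adjusted p = 0.732). The gene cyp1a changed by 3.09 ± 0.06 in June and 3.95 ± 0.07 in October (adjusted p of the difference = 8.16e-06), and ahrra by 2.13 ± 0.10 and 4.28 ± 0.16 (adjusted p = 7.05e-06). The enzyme gene cyp1c1 changed by 2.19 ± 0.05 and 2.76 ± 0.06 (adjusted p = 0.000143), and cyp1b1 by 2.11 ± 0.10 and 2.73 ± 0.10 (adjusted p = 0.0467). The family 2 gene cyp2k18 changed by 3.77 ± 0.33 in June and 5.96 ± 0.13 in October (adjusted p = 0.00176), whereas the difference in cyp19a1b, 4.90 ± 0.09 against 4.82 ± 0.11, was not called (adjusted p = 0.931).

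Some light, clock and repair genes differed between the campaigns, while others described above, arntl1a (adjusted p of the difference = 0.779), nfil3-5 (0.356) and ddb2 (0.234), did not pass that test. The clock gene per1a, not called in the main June fit (-0.32 ± 0.10), changed by 1.51 ± 0.10 in October (adjusted p of the difference = 2.69e-06). The repair gene cry5 changed by 1.01 ± 0.05 in June and 1.73 ± 0.07 in October (adjusted p = 5.37e-05), xpc by 0.85 ± 0.05 and 1.36 ± 0.07 (adjusted p = 0.00249) and tefa by 0.51 ± 0.04 and 1.08 ± 0.06 (adjusted p = 3.42e-05). The change was the larger in June in the signalling subunit gene pik3r3a, -0.45 ± 0.08 against 0.24 ± 0.07 in October (adjusted p = 0.00193), and in the nucleolar genes ddx56, 0.29 ± 0.05 against -0.20 ± 0.07 (adjusted p = 0.00436), and cebpz, 0.25 ± 0.04 against -0.07 ± 0.04 (adjusted p = 0.00715).

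**Figure D5:**
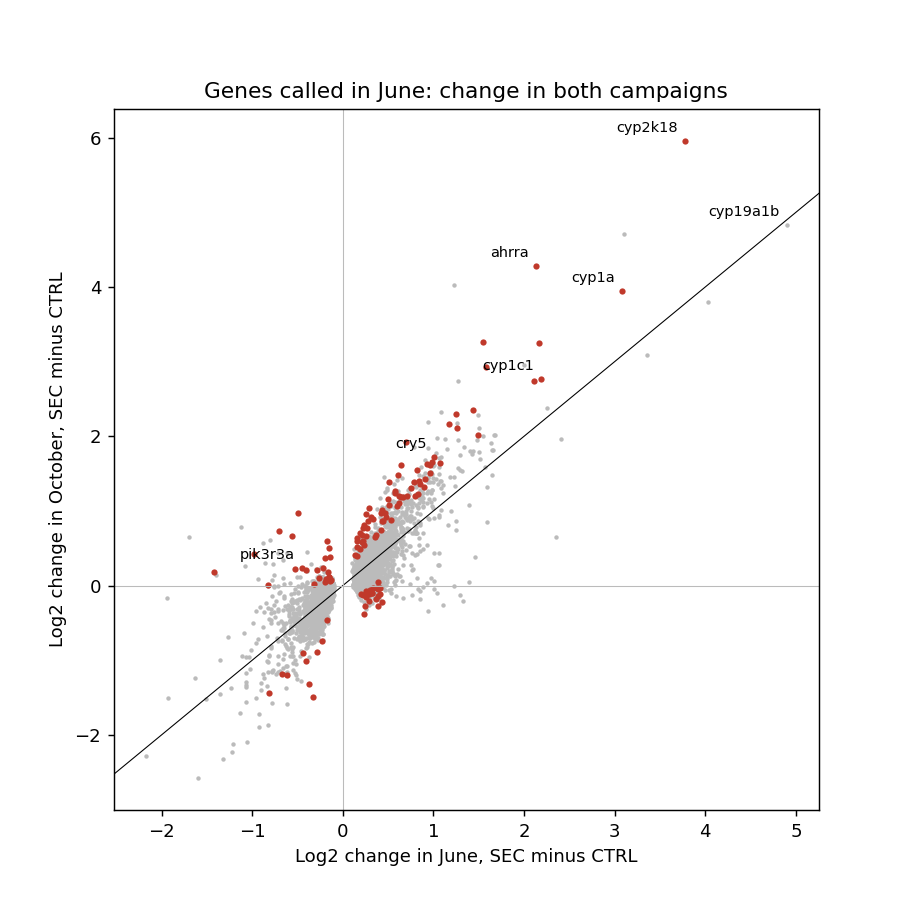
Log2 change in October (y) against June (x) of each gene called in June and tested in October; coloured points are genes whose effects differ between campaigns at an adjusted p under 0.05. The line marks equal change, and ahrra and cyp1a lie above it with October changes of 4.28 and 3.95.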

How the data were processed

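Whole-larva RNA was sequenced with a stranded mRNA kit and molecular identifiers, per the labels' protocols. STAR 2.7.8a, SAMtools, CASAVA, DESeq2 (given as 3.17) and the build GRCz11 are named in the submitters' processing notes, and the counting step is not stated there. The deposited table holds raw counts per gene, and 20 of 20 files of single libraries equalled it. Whether the counts are of identifiers or of reads was not stated, and reads of near-identical gene copies may be split.

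Genes were kept with edgeR's filter (minimum count 10), which removed 9461 of 32520 genes. TMM-scaled CPM were computed here from the deposited counts. The main test was edgeR's quasi-likelihood test (version 4.0.16, R 4.3.3) on the 10 June libraries, with Benjamini-Hochberg adjustment over 23059 genes. An error after ± is the standard error for a log2 change and the SD over 5 libraries for CPM. October was fitted alone for its own changes, and an interaction in all 20 libraries tested the difference between campaigns. The procedure was also run on simulated data with changes of at least 1.5-fold. Most genes called here changed by less, so that run cannot speak for them. Alternatives were RLE factors, library totals, other filters, a replicate block, all 20 libraries, DESeq2 1.42.0 and each library left out.

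The members and gene lists were chosen with earlier results of these data known. Genes were named by a rule, and not every gene it gave is printed. It took the 10 largest changes without overlap, the 8 smallest p and the 6 largest CPM differences in each direction. It also took up to 3 called members per list and direction, 8 sentinels and the 6 clearest campaign differences each way. Apart from list members and sentinels, a gene had to be called with a mean of at least 1 CPM. Clone names, shared symbols and rows without symbol were left out there. The genes alas2, anpepb, fech, gstp1, hsp70.2, keap1b, rho, slc10a2, slc5a1, tnnc2 and ugt1a1 fall outside that rule and were named after their values were seen.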

Additional observations from a re-analysis of the deposited data

Results flagged for a closer look

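In 9 of the 206 groups examined (CTRL and SEC of each gene named), 1 library stood far from the other 4 by Dixon's criterion. For values not selected beforehand, chance meets that criterion in about 1 of 20 groups. Of the 103 genes named 97 were called, many of them picked for separation or small p, so that rate cannot be carried over. Whether the number found differs from chance was not tested. In SEC, hsp70.2 was at 17.5 CPM in replicate 5 against 47.1 to 58.0 CPM in the others, and rhcgb was at 43.8 CPM in replicate 5 against 34.8 to 37.0 CPM. SEC replicate 2 was apart in desma at 213 CPM against 203 to 206 CPM, in fech at 10.9 CPM against 9.41 to 9.77 CPM, and in sult1st4 at 1.91 CPM against 2.58 to 2.84 CPM. SEC replicate 4 was apart in sqstm1 at 92.3 CPM against 80.3 to 83.7 CPM. In CTRL, bbox1 was at 32.2 CPM in replicate 1 against 35.0 to 36.0 CPM. Also in CTRL, nr4a1 was at 44.2 CPM in replicate 2 against 33.2 to 35.6 CPM, and pkp1b at 16.2 CPM in replicate 3 against 13.2 to 13.6 CPM.

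For 21 of the genes named the effect differed between campaigns by the interaction test, each value below being the October minus the June log2 change. Among genes of chemical defence the difference was 2.19 in cyp2k18, 2.15 in ahrra, 0.86 in cyp1a, 0.63 in cyp1b1, 0.58 in cyp1c1, 0.67 in abcc2, 0.56 in porb, 0.53 in hebp2 and 0.40 in sult6b1. Among light, clock and repair genes it was 1.84 in per1a, 0.72 in cry5, 0.56 in cry-dash, 0.56 in tefa, 0.51 in xpc and 0.51 in per2. In the other genes it was 1.05 in bbox1, 0.69 in pik3r3a, 0.32 in acadvl, -0.58 in slc5a1, -0.49 in ddx56 and -0.32 in cebpz.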

How the results depend on the processing

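The June count of called genes stayed within 1.5-fold of 3666 under every alternative run, from 2501 with all 20 libraries in the fit to 4180 with DESeq2, and from 2740 to 3557 with 1 library left out. A 2-fold minimum left 136 genes. The count of genes with different effects in the campaigns, 239, was 116 with a replicate block and 607 with DESeq2, and 134 to 330 with 1 library left out. The labels do not say if replicate numbers pair the pools. Deviations of same-numbered libraries from their group means correlated at -0.070 to -0.016, and those of differently numbered ones at -0.074 to 0.110. These correlations cannot show how the pools were set up. The block gave 3472 June calls, and under it hsp70.2 was not called (log2 change 1.41, adjusted p = 0.0805). The sign of cdkn1a, which was not called, reversed without single libraries, with values from -0.045 to 0.101. Small list counts depend on single libraries, such as the steroid list's lower calls, 1 with all libraries and 5 without SEC replicate 5. The cause of these shifts was not tested.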

Other observations

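Genes of ribosome assembly and of mitochondrial import were grouped after the data were seen, by name patterns, and carry no test as groups. Over all genes tested 8.69% were higher and 7.21% lower in June, and 7.21% and 5.09% in October among genes tested in both. Ribosome assembly genes, which make and fold ribosomal RNA in the nucleolus, were called higher in 56 of 75 (74.7%). Only nol4lb, which matched the pattern by name only, was lower, and the median log2 change was 0.26. The summed level of the group was 2499 to 2728 CPM in CTRL and 2915 to 3224 CPM in SEC, without overlap. In October none of the 75 was called, with a median of -0.03. As the group was chosen with values known, its counts in June and October are no test of a difference between campaigns. Mitochondrial import and assembly genes were higher in 25 of 67 (37.3%) and lower in 1 (1.49%), with a median of 0.18. In October 17 of them were higher and 0 lower.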
